A study of Mus musculus with 30 samples.

Results

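Nuclear RNA from control cells sorted in early G1 (EG1) was compared with nuclear RNA from control cells sorted in late G1 (LG1), with SRCAP present in both. The comparison rests on 4 of the 30 libraries of the series, 2 per phase, taken by their labels as untreated SYAT cells in EG1 and in LG1. Between the phases, 39 of 21020 genes were higher in EG1 (0.186%) and 113 were lower (0.538%) at an adjusted p under 0.05 and an absolute log2 fold change over 0.5. Of 59 replication-dependent histone genes tested, 53 were lower in EG1 and none was higher. Genes listed here as mitotic, in 6 lists, split: 11 of 120 were higher in EG1, among them Cdc20 and Plk1, and 11 were lower, among them Fbxo5, Aurkb and Top2a. Some members, such as Fbxo5 and Cdca5, act from the G1/S transition or S phase on. Genes of DNA replication lay mostly below 0, with 6 of 54 past both thresholds.

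SYAT cells are CGR8 mouse embryonic stem cells in which both copies of endogenous Srcap carry YPet and the auxin-inducible degron AID, and which express Tir1, so that the auxin IAA degrades SRCAP. They derive from 1 homozygous knock-in clone, which was then transduced to express Tir1 and selected. For the sort they also carried mCherry-MD, a fluorescent protein fused to a mitotic degron, driven by the PGK promoter from a lentiviral vector. This protein is destroyed at mitosis and builds up again during G1. Cells with low Hoechst signal were sorted as EG1 where mCherry was low and as LG1 where it was high. Control cells were kept in the Tir1 inhibitor auxinole (200 nM by the labels, while the study's methods give another unit), and the other 4 libraries of the same table came from EG1 and LG1 cells after 1 h of 500 µM IAA. All of them had been moved from medium with 2 kinase inhibitors to medium with serum and LIF before the experiment.

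As background, the ubiquitin ligase APC/C destroys cyclin B and other mitotic proteins, first with Cdc20 and then with Cdh1 (the product of Fzr1), and Cdh1 keeps it active in G1. Transcripts of mitotic genes made in G2 and M can outlast division, and DREAM and MuvB complexes act on many of these genes through a promoter element called the CHR. Towards S phase, cyclin E with Cdk2 and the E2F factors turn on genes for origin licensing, nucleotide supply and DNA synthesis, and histone genes are then transcribed for the new chromatin. Embryonic stem cells have a short G1 with high cyclin E.

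The exon columns of the 4 control libraries held between 19740778 and 26672402 counts, and the TMM factors of the 8 sorted libraries lay between 0.895 and 1.08. The median log2 fold change over all genes was -0.00061, and it was 0.074 with library totals alone. Only exon columns were used, because the intron columns differed in content: among 1993 genes with a single exon, 44.8% and 45.6% had counts in the intron column of the EG1 control libraries, against 1 gene (0.0502%) in either LG1 control library. The study's methods call its replicates biological duplicates, and replicate number marked a difference that ran through both phases. The differences between replicates 1 and 2 in EG1 and in LG1 had a correlation of 0.572 across genes, which are not independent replicates, so replicate number was kept as a block. Levels below are exon counts scaled to library size with TMM factors (CPM), fold changes are log2 values of EG1 minus LG1 with their standard error, and adjusted p-values come from edgeR's quasi-likelihood test on all 8 libraries.

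Some named genes share exons with an antisense gene, among them Cdc20 (Elovl1), Plk1 (Gm44985), Prc1 (Rccd1), Kif20a (Cdc23), E2f8 (Gm2788), H2afx (Gm44335), Fam111a (Gm16274), Bcl11a (4930538E20Rik), Chaf1a (Ubxn6), Cdc45 (Ufd1), Hist1h2af (Gm44297) and Srcap (1700008J07Rik and Gm28198). The strand setting of the counting is not given in the sources used here, so the reads of such pairs cannot be told apart.

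The transcripts taken as phase markers, which were not used to sort the cells, did not all follow the phase labels. Cdc20 (chromosome 4, 118432901 to 118437352 in GRCm38), the activator of APC/C in mitosis, stood at 200 and 341 CPM in EG1 and at 105 and 179 CPM in LG1. Both pairs of the same replicate fell from EG1 to LG1, and the lowest EG1 library lay above the highest LG1 library. The log2 fold change was 0.93 ± 0.065 (SE, n = 2 per phase), 1.90-fold, with an adjusted p of 3.48e-08 by edgeR. Plk1 (chromosome 7, 122159439 to 122169873), the polo kinase of mitotic entry and exit, stood at 73.9 and 127 CPM in EG1 and at 43.0 and 66.3 in LG1, also without overlap, a difference of 0.86 ± 0.070 on the log2 scale (adjusted p = 2.07e-07 by edgeR). Ccnb1 (chromosome 13, 100778650 to 100786570), which encodes cyclin B1, was not higher in EG1: it had 64.2 and 119 CPM there against 83.1 and 132 CPM in LG1. Its phases overlapped, and its log2 fold change of -0.25 ± 0.074 had an adjusted p of 0.110 by edgeR, with values from -0.38 without EG1 replicate 2 to -0.11 without EG1 replicate 1.

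The late markers pointed to LG1 by small amounts. Ccne1 (chromosome 7, 38097984 to 38107534), which encodes cyclin E1, had 53 and 121 CPM in EG1 and 74.1 and 140 CPM in LG1. Mcm6 (chromosome 1, 128331590 to 128359664), a subunit of the replicative helicase, had 206 and 278 CPM in EG1 and 255 and 339 CPM in LG1. Both were lower in EG1 within each replicate, but the phases overlapped. Their log2 fold changes of -0.33 ± 0.082 and -0.29 ± 0.063 passed the adjusted p (0.0460 and 0.0163 by edgeR) and not the fold threshold. Srcap itself, whose protein the degron targets, stood at 56.9 and 53.8 CPM in EG1 and 54.3 and 50.2 CPM in LG1, and its log2 fold change of 0.08 ± 0.070 had an adjusted p of 0.695 by edgeR.

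**Figure D1:**
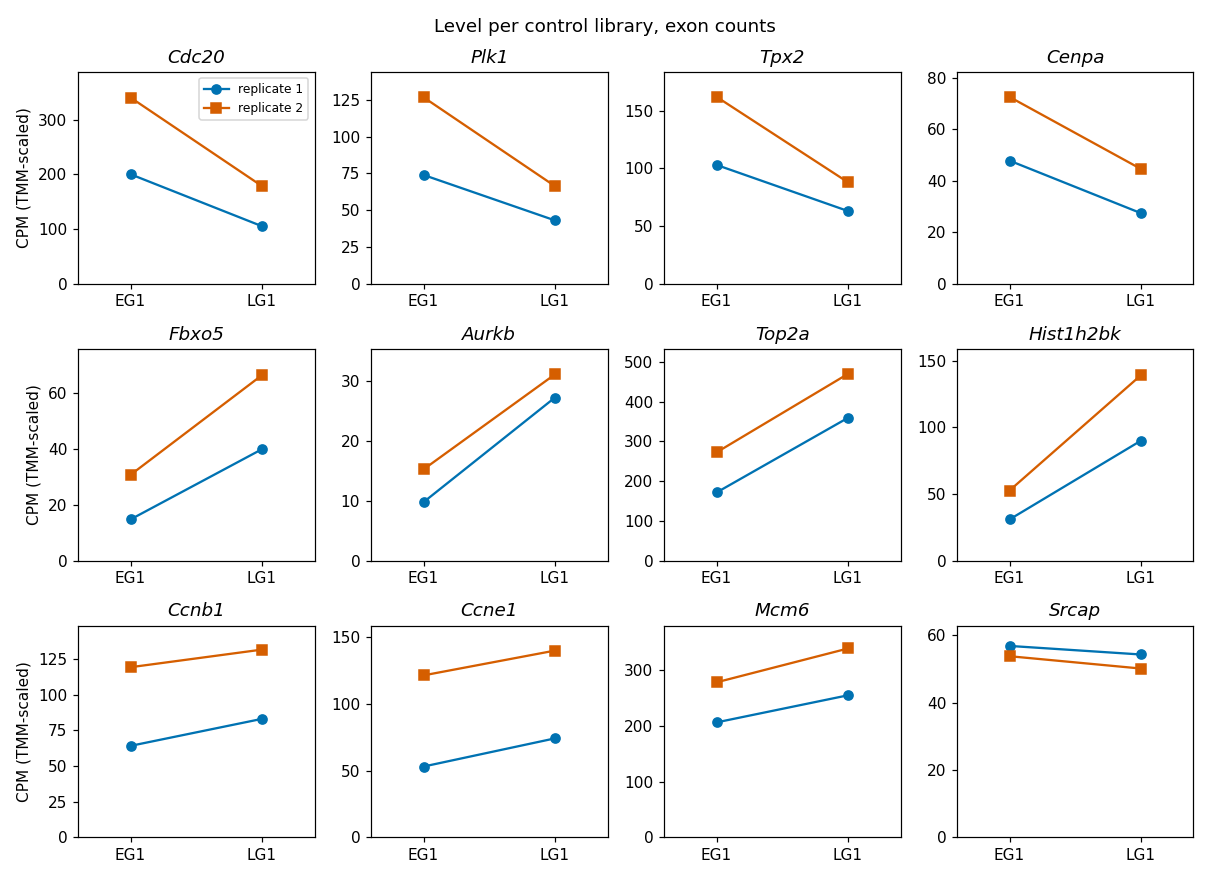
Level of 12 genes in the 4 control libraries, in TMM-scaled CPM on axes that start at 0; circles are replicate 1, squares replicate 2, and a line joins EG1 and LG1 of the same replicate number. Cdc20, Plk1, Tpx2 and Cenpa fall from EG1 to LG1 in both replicates, Fbxo5, Aurkb, Top2a and Hist1h2bk rise in both, and replicate 2 lies above replicate 1 for every gene shown except Srcap.

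Without pairing by replicate number, fewer of these differences stand clear of the spread. Of the 39 genes called higher in EG1, 33 had both EG1 libraries above both LG1 libraries in CPM, against 11.7% of all genes, and of the 113 called lower, 80 had both EG1 libraries below both LG1 libraries, against 10.7%. All 39 and all 113 had 1 sign in both pairs. The calls were made on the same libraries, so they favour genes without overlap and with 1 sign. The count of higher genes depended on single libraries: it was 14 without EG1 replicate 2, 17 without LG1 replicate 1, 10 without LG1 replicate 2, and 67 or 68 without replicate 1 or 2 of IAA LG1, which enter the fit through the shared spread and the block. The count of lower genes stayed between 81 and 127. Replicate 2 was the higher one for 57 of the 59 histone genes in EG1 and for 56 in LG1, and for 117 and 109 of the 120 mitotic genes, on log2(CPM + 1). The median difference between replicates was 0.76 in EG1 and 0.70 in LG1 for histones, and 0.41 and 0.30 for mitotic genes, against -0.026 and -0.023 over all genes. Its part in the phase difference was not tested. A fit with no replicate block called 0 genes by edgeR, with 303 at an unadjusted p under 0.05, and in it the histone median was -1.0005 and the 22 called mitotic genes had the same signs.

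Among regulators of mitotic entry and exit, 4 of 26 were called higher in EG1 and 4 lower, with a median of -0.0024 against -0.00061 over all genes. Beside Cdc20 and Plk1, the higher ones were Ccnb2, which encodes cyclin B2, and Aurka, the kinase of centrosomes and spindle poles. Ccnb2 had 44.4 and 73.5 CPM in EG1 and 27.3 and 50.2 CPM in LG1, so the phases overlapped although both pairs fell (log2 fold change 0.61 ± 0.095, adjusted p = 0.000837 by edgeR). Aurka had 34.0 and 53.9 CPM in EG1 and 25.7 and 34.0 CPM in LG1, where its lower EG1 library met its higher LG1 library (0.54 ± 0.082, adjusted p = 0.000675 by edgeR). Without EG1 replicate 2, 7 mitotic genes were called higher.

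The lower ones were Fbxo5, Aurkb, Cdk1 and Wee1. Fbxo5 (chromosome 10, 5799160 to 5805600) encodes Emi1, the inhibitor of APC/C between the G1/S transition and mitosis. It stood at 14.7 and 30.7 CPM in EG1 and at 39.9 and 66.4 CPM in LG1, a log2 fold change of -1.26 ± 0.089 (2.39-fold higher in LG1, adjusted p = 3.48e-08 by edgeR), with no overlap. Aurkb, the kinase of the chromosomal passenger complex, stood at 9.76 and 15.2 CPM in EG1 and at 27.2 and 31.1 CPM in LG1 (-1.25 ± 0.11, adjusted p = 5.21e-07 by edgeR). The activator of APC/C and its inhibitor thus differed in opposite directions, and the 2 Aurora kinases did too. Cdk1, the mitotic cyclin-dependent kinase, fell by 0.78 on the log2 scale in EG1, and Wee1, the kinase that restrains it, by 0.69.

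Of the spindle motors and microtubule factors, 4 of 24 were called higher in EG1 and 1 lower, and 9 were higher at an adjusted p under 0.05 at any fold, against 0.304% of all genes. The list median was 0.19. Tpx2, which activates Aurora A on the spindle, stood at 103 and 162 CPM in EG1 and at 63.0 and 88.0 CPM in LG1 (0.80 ± 0.069). Hmmr, a spindle factor that binds hyaluronan, Spag5 (astrin) and the kinesin Kif20a were the others, at 0.64, 0.56 and 0.50. Prc1, which bundles microtubules in the central spindle, went the other way, with 16.2 and 20.7 CPM in EG1 and 32.2 and 44.9 CPM in LG1 (-1.06 ± 0.091).

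In the kinetochore and checkpoint list, 2 of 26 members were called higher and 1 lower, while 20 of the 26 had values below 0 and the median was -0.17. Cenpa, the centromeric histone H3 variant, had 47.8 and 72.5 CPM in EG1 and 27.4 and 44.6 CPM in LG1 (0.75 ± 0.075). Bub1b, the checkpoint protein BubR1, had 129 and 193 CPM against 87.7 and 118 CPM (0.63 ± 0.066). Nsl1, a subunit of the Mis12 complex, was lower in EG1 (-0.56 ± 0.12). Among passenger and cytokinesis genes Pimreg was higher (0.62 ± 0.12) and Cep55, which acts in abscission, lower (-0.54 ± 0.11), out of 13.

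In the condensin, cohesin and chromosome structure list, 4 of 17 were called lower and 0 higher by edgeR and by DESeq2. At an unadjusted p under 0.05 in edgeR, 4 were higher and 8 lower, against 11.9% of all genes in either direction. At an adjusted p under 0.05 and any fold, 5 were lower and 2 higher, the latter being Espl1, the protease separase (0.39), and Ncapd2, a subunit of condensin I (0.34). Top2a, the topoisomerase that untangles sister chromatids, stood at 171 and 272 CPM in EG1 and at 359 and 470 CPM in LG1 (-0.92 ± 0.083). Smc4, the condensin core subunit, stood at 70.3 and 79.8 CPM against 131 and 149 CPM (-0.90 ± 0.067). Cdca5 (sororin), which holds cohesin in place from S phase on, and Ncapg2, a subunit of condensin II, were lower by the same test at -0.96 ± 0.11 and -0.55 ± 0.079. The core subunits of APC/C were not called in either direction (0 of 14 by edgeR and by DESeq2, 1 at an unadjusted p under 0.05), with values from -0.12 to 0.22. Of the 22 called mitotic genes, 17 had phases that did not overlap, 8 higher and 9 lower in EG1, but the calls came from the same libraries. Of all 120 mitotic genes, 15 had both EG1 libraries above both LG1 libraries, against 11.7% of all genes. Another 25 had both EG1 libraries below, against 10.7%.

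Set beside unsorted SYAT control cells, the 22 called mitotic genes were lower in both phases by the mean of each phase. The unsorted libraries were counted in another table. Their counts were scaled together with those of the sorted control libraries, and these levels are described without a test. Sorted cells also differed in the stain, the sort and mCherry-MD, which cannot be told apart from phase. Over all genes the median difference from unsorted cells was 0.078 in EG1 and 0.065 in LG1. For the 11 genes higher in EG1 the median difference from unsorted cells was -0.77 in EG1 and -1.62 in LG1 on the log2 CPM scale, so that the order of the medians was unsorted, EG1, LG1. For the 11 genes lower in EG1 it was -1.82 in EG1 and -0.92 in LG1, and the order was unsorted, LG1, EG1. Aurkb had 117 and 120 CPM in unsorted cells and Cdc20 407 and 439 CPM. In bulk RNA, fewer cells that carry a transcript and less of it in each cell cannot be told apart.

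**Figure D2:**
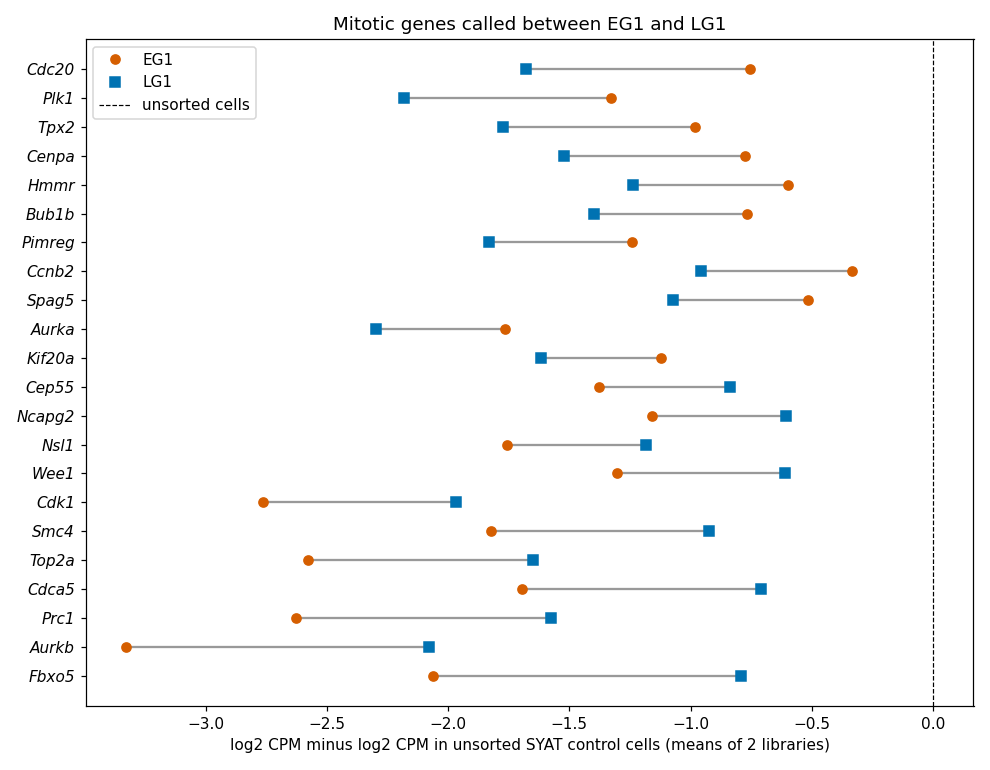
Mean log2 CPM of the 22 mitotic genes called between the phases, relative to unsorted SYAT control cells (dashed line at 0), for EG1 (circles) and LG1 (squares), each a mean of 2 libraries. All points lie left of the line; EG1 is the nearer point for the 11 genes from Cdc20 to Kif20a and LG1 is the nearer point for the other 11.

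The promoters of these genes hold shared elements in both directions. RefSeq sequences (GRCm38.p6) of 250 bases before to 50 bases after the start were found for 9 of the 11 mitotic genes higher in EG1 and for 7 of the 11 lower ones, and were searched on both strands for the CHR element TTTGAA and for CCAAT, the site of NF-Y. TTTGAA was in 8 of 9 windows of the higher genes and in 9 of 9 windows of the lower ones, against 17.9% of all 32851 windows and 12.4% of those of genes tested. CCAAT was in 9 of 9 and in 5 of 9, against 37.4% of all windows. The element is thus found near genes that moved in opposite directions. The 150 bases from 100 before the start are shown for 3 genes higher in EG1, Cdc20 (chr4:118437294-118437443, minus strand), Plk1 (chr7:122159335-122159484, plus strand) and Hmmr (chr11:40733388-40733537, minus strand), and for 3 lower ones, Fbxo5 (chr10:5805416-5805565, minus strand), Top2a (chr11:99024140-99024289, minus strand) and Cdca5 (chr19:6084997-6085146, plus strand), each 5′ to 3′ on the gene's strand with TTTGAA or its reverse complement in capitals.
Cdc20: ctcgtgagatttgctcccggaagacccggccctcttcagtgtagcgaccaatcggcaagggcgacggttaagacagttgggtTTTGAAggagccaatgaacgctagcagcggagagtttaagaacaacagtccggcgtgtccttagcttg
Plk1: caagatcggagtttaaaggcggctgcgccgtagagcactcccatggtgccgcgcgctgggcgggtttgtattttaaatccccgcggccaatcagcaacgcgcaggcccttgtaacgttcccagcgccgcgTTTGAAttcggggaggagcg
Hmmr: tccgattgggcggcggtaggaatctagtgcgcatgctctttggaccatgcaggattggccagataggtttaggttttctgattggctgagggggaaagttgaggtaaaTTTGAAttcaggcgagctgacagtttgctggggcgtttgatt
Fbxo5: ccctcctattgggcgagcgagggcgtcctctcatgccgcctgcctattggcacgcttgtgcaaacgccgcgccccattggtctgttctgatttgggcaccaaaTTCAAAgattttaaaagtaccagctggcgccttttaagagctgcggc
Top2a: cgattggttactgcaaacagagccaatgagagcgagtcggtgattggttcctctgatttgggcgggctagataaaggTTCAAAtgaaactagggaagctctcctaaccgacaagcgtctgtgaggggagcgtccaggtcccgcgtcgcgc
Cdca5: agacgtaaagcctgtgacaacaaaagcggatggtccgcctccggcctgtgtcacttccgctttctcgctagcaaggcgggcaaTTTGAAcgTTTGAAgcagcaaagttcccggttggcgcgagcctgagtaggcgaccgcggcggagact

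The element starts at base -18 of Cdc20, +31 of Plk1 and +9 of Hmmr relative to the RefSeq start, and at base +4 of Fbxo5, -23 of Top2a and -17 and -9 of Cdca5. In all 6 it therefore lies within 31 bases of the start. None of the motifs searched is contained in another.

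Replication-dependent histone genes, which are transcribed for S phase, made up 53 of the 113 genes lower in EG1. The table holds 69 of them and 59 passed the filter on low counts. None was higher in EG1 by edgeR or DESeq2, nor at an unadjusted p under 0.05 in edgeR (0 genes). The median log2 fold change was -0.998 (all genes -0.00061) and the values ran from -2.09 to 0.89. Together they took 0.288% and 0.440% of exon counts in the EG1 control libraries and 0.527% and 0.803% in the LG1 ones, against 1.09% and 1.08% in unsorted cells. The summed share was thus higher in LG1 than in EG1 within each replicate and across all 4 libraries, and lower in both phases than in unsorted cells. The deposited counts do not tell how reads shared by near-identical histone genes were assigned, so values of single members are less certain than the sum.

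All 5 histone types were involved. Called lower were 6 of 6 linker histone H1 genes (median -0.88), 13 of 16 H2A genes (-1.18), 14 of 15 H2B genes (-1.31), 9 of 10 H3 genes (-0.96) and 11 of 12 H4 genes (-0.77). By place, 49 of 51 were called on chromosome 13, 2 of 5 on chromosome 3, 1 of 2 on chromosome 11 and the single gene on chromosome 6. Those called on chromosome 13 include Hist1h2al (51202727 to 51203065), which is annotated as a processed pseudogene and lies apart from the other called ones. Hist1h2bk (chromosome 13, 22035870 to 22036345) had the smallest p of all genes: it stood at 30.9 and 52.6 CPM in EG1 and at 89.9 and 139 CPM in LG1, with no overlap (-1.47 ± 0.068, adjusted p = 3.78e-10 by edgeR). Hist1h2af had the largest difference of the list, with 3.58 and 15.2 CPM against 24.9 and 48.7 CPM (-2.09 ± 0.17), and Hist1h3c stood at 36.3 and 73.9 CPM against 114 and 187 CPM (-1.49 ± 0.080).

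The abundant linker histone gene Hist1h1a showed a smaller difference, with 216 and 372 CPM in EG1 and 387 and 667 CPM in LG1 (-0.84 ± 0.080). Of the 6 members not called, Hist1h4i was lower at an adjusted p of 0.00871 by edgeR but under the fold threshold (-0.47), and Hist1h2aj, Hist2h2ab, Hist2h2be, Hist2h3c2 and Hist3h2a stood below 3 CPM in every control library. Over the 59 genes, 45 had both EG1 libraries below both LG1 libraries and 13 had overlapping phases. H2afx, which encodes the variant H2A.X and was singled out after its value was seen, was lower as well, at 82.5 and 176 CPM against 170 and 320 CPM with a small overlap (-0.95 ± 0.070). The genes of H2A.Z, H2afz and H2afv, were not called (-0.06 and -0.15). Of 500 other single-exon protein-coding genes, 1 was higher and 4 were lower in EG1, with a median of 0.026.

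Histone promoters were found for 48 of the 53 called genes. The octamer ATTTGCAT was in 6 of 14 windows of the H2B genes called, and in 1.74% of all windows, and CCAAT was in 14 of those 14. TTTGAA, searched above for the mitotic genes, was in 10 of those 14 windows as well. It was in 23 of 49 windows of all histone genes called, so it was not particular to the mitotic genes. The octamer is shown in capitals for the pair of H2B genes with the smallest p, Hist1h2bk (chr13:22035721-22035870, plus strand) and Hist1h2bg (chr13:23571300-23571449, plus strand).
Hist1h2bk: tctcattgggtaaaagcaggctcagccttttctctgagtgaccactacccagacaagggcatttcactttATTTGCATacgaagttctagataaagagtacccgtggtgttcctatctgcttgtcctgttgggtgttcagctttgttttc
Hist1h2bg: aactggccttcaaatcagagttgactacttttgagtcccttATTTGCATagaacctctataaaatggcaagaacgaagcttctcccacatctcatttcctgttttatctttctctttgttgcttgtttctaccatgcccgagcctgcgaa

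**Figure D3:**
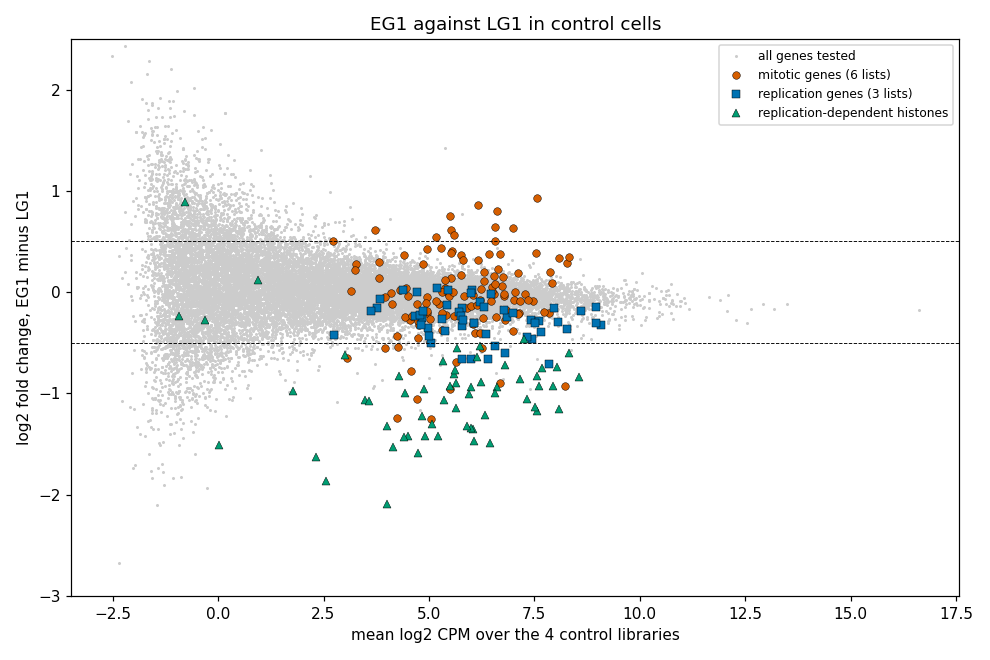
Log2 fold change of EG1 minus LG1 against the mean log2 CPM of the 4 control libraries for all 21020 genes tested (grey; 3 genes lie outside the vertical axis), with mitotic genes (orange circles), replication genes (blue squares) and replication-dependent histones (green triangles); dashed lines mark 0.5 and -0.5. Most histones lie below the lower line, replication genes lie mostly between 0 and the lower line, and mitotic genes lie on both sides.

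Origin licensing genes, which load the helicase onto DNA in G1, were lower in EG1 by small amounts: 13 of 16 had values below 0, 6 were lower at an adjusted p under 0.05 at any fold (1.38% of all genes), and 1 of 16 was called. That gene was Mcm10, which acts when the loaded helicase is switched on, with 63.3 and 129 CPM in EG1 and 114 and 166 CPM in LG1 and overlapping phases (-0.60 ± 0.098, adjusted p = 0.00158 by edgeR). The subunits Mcm3, Mcm4, Mcm5 and Mcm6 of the helicase and Orc6 of the origin recognition complex passed the adjusted p alone, with values of -0.30, -0.37, -0.33, -0.29 and -0.33. Mcm2 and Mcm7 (-0.15 and -0.19), the loading factors Cdc6 (-0.66, adjusted p = 0.0652 by edgeR) and Cdt1 (-0.16), and geminin, Gmnn (-0.26), did not. Cdc6 had the widest spread between replicates, with 39.2 and 114 CPM in EG1 and 92.6 and 126 CPM in LG1. The other subunits of the origin recognition complex had -0.16 (Orc1), 0.02 (Orc2), 0.02 (Orc3), -0.0024 (Orc4) and 0.04 (Orc5), none of which passed.

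At the replication fork, 29 of 30 genes had values below 0, 12 were lower at an adjusted p under 0.05, and 4 were called, with a median of -0.27. Chaf1b and Chaf1a, subunits of the chromatin assembly factor CAF-1 that places histones behind the fork, were 2 of the 4. Chaf1b had 38.3 and 66.7 CPM in EG1 and 64.3 and 100 CPM in LG1 (-0.66 ± 0.069), and Chaf1a 57.2 and 109 CPM against 92.9 and 143 CPM (-0.53 ± 0.079). Clspn, the checkpoint adaptor claspin, had 30.3 and 61.7 CPM against 52.5 and 90.5 CPM (-0.66 ± 0.084), and the phases overlapped for all of these 3. Cdc45, part of the active helicase, had 23.0 and 33.4 CPM in EG1 and 34.5 and 45.1 CPM in LG1, without overlap (-0.51 ± 0.082). Over the 54 replication genes, 5 had both EG1 libraries below both LG1 libraries, against 10.7% of all genes. By this count they did not stand apart from other genes. Without EG1 replicate 1 or without LG1 replicate 1, 3 replication genes were called. Among genes of nucleotide supply, 8 of 8 had values below 0 and 1 was called, Rrm2, the regulated subunit of ribonucleotide reductase, with 125 and 262 CPM in EG1 and 233 and 379 CPM in LG1, with overlap (-0.71 ± 0.089).

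The E2F and RB family had a median of -0.30, with 5 of 13 members lower at an adjusted p under 0.05 and 1 called. E2f8, an E2F repressor of late G1 and S phase, had 15.5 and 35.7 CPM in EG1 and 33.7 and 55.3 CPM in LG1, with overlap (-0.85 ± 0.13, adjusted p = 0.000590 by edgeR). The activators E2f1 and E2f3, the repressor E2f7 and the partner Tfdp1 passed the adjusted p alone, at -0.33, -0.37, -0.30 and -0.36. The activator E2f2 (-0.40), the repressor E2f6 (-0.23), the pocket proteins Rb1 (-0.21), Rbl1 (-0.33) and Rbl2 (0.11), and E2f4 (0.12), E2f5 (0.19) and Tfdp2 (-0.08) did not pass. Leaving out EG1 replicate 1 or LG1 replicate 1 ended the call of E2f8.

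None of the 17 G1 cyclins, CDKs and inhibitors was called by edgeR or by DESeq2, with 7 at an unadjusted p under 0.05, 6 of them lower in EG1. Over all genes, 11.9% were at an unadjusted p under 0.05 by edgeR in either direction. Beside Ccne1, the phosphatase Cdc25a, which frees Cdk2, and Skp2, which marks the inhibitor p27 for destruction, passed the adjusted p, at -0.46 and -0.38. Ccne2 and Cdk2 had values of -0.37 and -0.21 that did not pass. Of the D-type cyclins, which pair with Cdk4 and Cdk6, Ccnd1 had -0.11, Ccnd2 0.29 and Ccnd3 -0.10, and the kinases Cdk4 and Cdk6 had -0.18 and -0.07. The inhibitors ranged from -0.16 for Cdkn1a to 0.14 for Cdkn1c, with Cdkn1b at 0.01, Cdkn2a at -0.10, Cdkn2b at 0.08, Cdkn2c at -0.09 and Cdkn2d at 0.09.

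An E2F site, searched as TTTGGCGC, TTTCGCGC, TTTCCCGC and TTTGCCGC on both strands, was in 0 of 35 windows of the genes higher in EG1, in 7 of 53 windows of the genes lower in EG1 other than these histones, in 3.68% of the windows of all genes tested and in 2.26% of all windows. Of the windows of replication genes called lower in EG1, 1 of 6 held a site. Mcm6 (chr1:128359656-128359805, minus strand), a marker of the late phase that was not itself called, holds one at base -47, in capitals.
Mcm6: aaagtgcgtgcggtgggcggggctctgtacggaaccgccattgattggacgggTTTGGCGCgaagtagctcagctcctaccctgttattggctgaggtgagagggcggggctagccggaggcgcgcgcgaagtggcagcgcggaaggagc

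**Figure D4:**
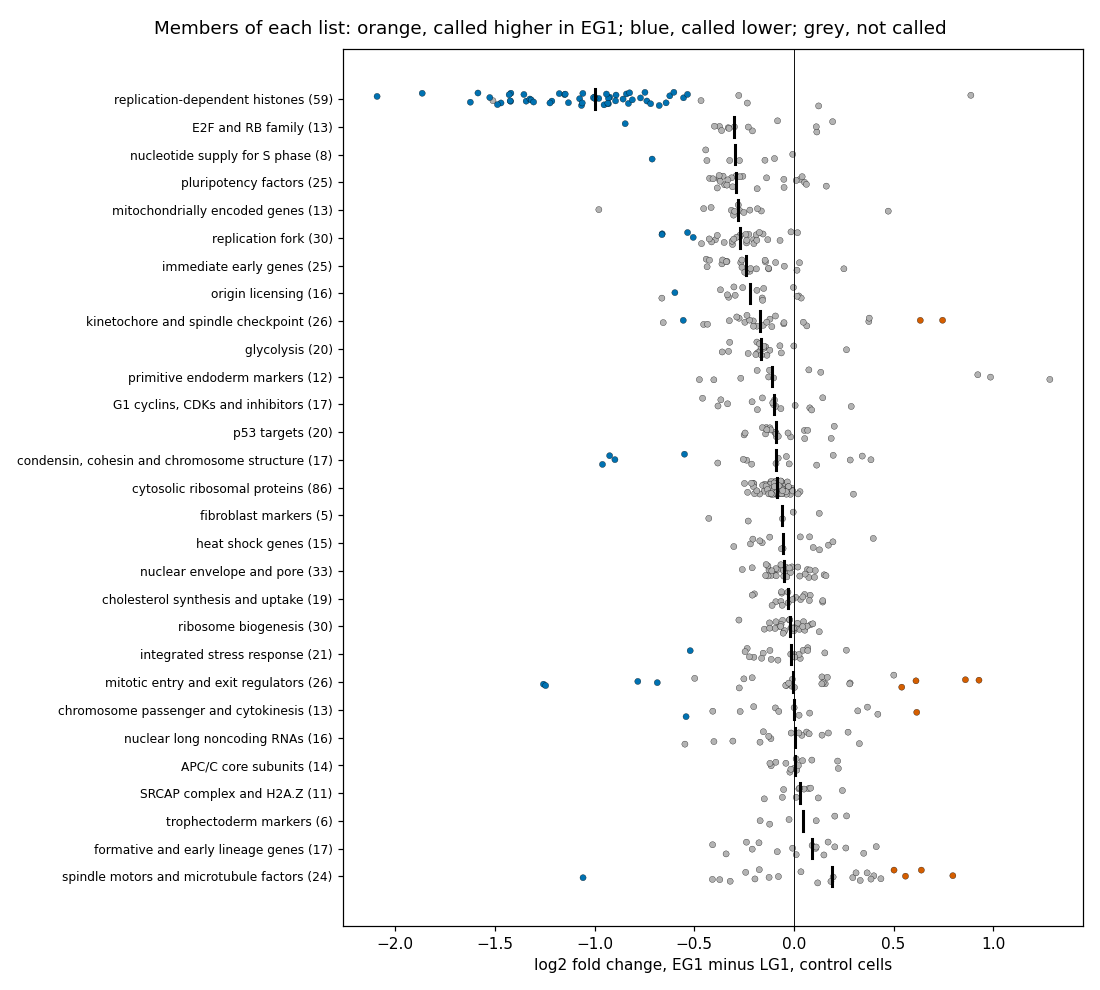
Log2 fold change of EG1 minus LG1 in control cells for each tested member of 29 lists (points, with the number of members after the name), ordered by the list median (black bar). Histones stand apart at a median of -0.998, spindle genes have the highest median at 0.19, and calls in both directions occur in the mitotic lists only.

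Outside the lists, 28 of the genes higher in EG1 and 41 of those lower remained. By the naming rule for the largest changes, Bcl11a, a zinc finger transcription factor, had 10.1 and 13.4 CPM in EG1 and 6.60 and 6.41 CPM in LG1 (0.84 ± 0.14), and Dnajb4, a co-chaperone of Hsp70, had 23.6 and 19.4 CPM against 14.1 and 11.9 CPM (0.72 ± 0.099). Arhgap19, a GTPase-activating protein that acts in mitosis, had 58.3 and 87.4 CPM against 37.0 and 47.8 CPM (0.77 ± 0.072), and Slc28a1, a nucleoside transporter, was at 0.62 ± 0.10. The 10 largest decreases under the same rule were all histone genes. Brca1, Bard1, Brip1, Rad51ap1, Rad54l, Exo1, Polq and Gen1, which act in repair of DNA, were picked from the genes called lower after their values were seen, so the choice sets their direction, and no list of repair genes was counted. Their values lay between -0.93 and -0.56. Brca1 had 62.9 and 101 CPM in EG1 and 134 and 158 CPM in LG1. Fam111a, a protease that acts at stalled replication forks, was also chosen after its value was seen. It had 12.8 and 26.5 CPM against 31.8 and 54.6 CPM (-1.16 ± 0.097).

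Embryonic stem cell markers were present in all 4 libraries. Pou5f1 stood between 317 and 508 CPM, Sox2 between 254 and 330 and Nanog between 46.0 and 77.2. None of 25 pluripotency factors was called by edgeR or DESeq2, with 16 at an unadjusted p under 0.05, against 11.9% of all genes by edgeR. At an adjusted p under 0.05, 9 were lower in EG1, against 1.38% of all genes, and the list median was -0.29. These 9 were Zfp42, Fgf4, Klf4, Esrrb, Nanog, Klf5, Dppa5a, Tdgf1 and Klf2, from -0.41 for Zfp42 to -0.31 for Klf2. Esrrb, for example, had 187 and 168 CPM in EG1 and 244 and 216 CPM in LG1, without overlap, while Pou5f1 (-0.18) and Sox2 (0.06) did not pass.

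Immediate early genes, which respond to growth factors and stress within minutes, had 4 of 25 lower in EG1 at an adjusted p under 0.05 and none called by edgeR or DESeq2. At an unadjusted p under 0.05 by edgeR there were 15, against 11.9% of all genes. Egr1 had 191 and 134 CPM in EG1 and 239 and 196 CPM in LG1 (-0.44 ± 0.075), and Dusp1, Fos and Junb had -0.34, -0.35 and -0.34. In both sorted phases the list lay above unsorted cells, by a median of 1.11 in EG1 and 1.41 in LG1 on the log2 CPM scale. Over all genes these medians were 0.078 and 0.065. Sorted cells also differed from unsorted ones in the stain, the sort and mCherry-MD, so phase cannot be told apart from handling. Of 13 mitochondrially encoded genes tested, 5 were lower in EG1 at an adjusted p under 0.05, led by mt-Nd2 (-0.30 ± 0.060). Mitochondrial genes took 2.15% and 1.70% of exon counts in EG1 and 2.40% and 1.85% in LG1, and the part of mitochondrial carry-over in the phase differences was not tested.

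In lists of other processes, 1 gene was called. Over all genes, 11.9% were at an unadjusted p under 0.05 by edgeR in either direction. The integrated stress response had 1 of 21 called, Chac1, which breaks down glutathione (-0.52 ± 0.125), and glycolysis had 2 of 20 lower at an adjusted p under 0.05, the glucose transporters Slc2a3 and Slc2a1 (-0.36 and -0.32), with 13 lower at an unadjusted p under 0.05 and 19 of 20 below 0. By edgeR, 0 of 15 heat shock genes (5 at an unadjusted p under 0.05), 0 of 20 p53 targets (2), 0 of 33 nuclear envelope and pore genes (6), 0 of 30 ribosome biogenesis genes (2), 0 of 86 cytosolic ribosomal protein genes (7), 0 of 19 genes of cholesterol synthesis and uptake (1), 0 of 16 nuclear long noncoding RNAs (2), 0 of 17 formative and early lineage genes (6) and 0 of 11 genes of the SRCAP complex and H2A.Z (1) were called, and DESeq2 called 0 in each of these lists. Of the 86 ribosomal protein genes, 83 had values below 0, with a median of -0.086, close in size to the shift of 0.074 that library totals gave over all genes. Malat1, the nuclear noncoding RNA, passed the adjusted p at -0.31, and Nodal, of the early lineage list, at -0.41.

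Markers of other cells were not called in either direction by edgeR or DESeq2. At an unadjusted p under 0.05, 3 primitive endoderm genes were higher and 3 lower in EG1, and 1 trophectoderm and 2 fibroblast genes were lower. The share of all genes at that p by edgeR was 11.9% in either direction. The primitive endoderm list took between 0.0551% and 0.0706% of exon counts in EG1 and between 0.0609% and 0.0752% in LG1. Its basement membrane genes were well detected, Lamb1 between 365 and 461 CPM, Col4a1 between 79.3 and 117 CPM and Lama1 between 48.4 and 66.4 CPM. Of the 12 tested genes, Col4a2 and Col4a1 passed the adjusted p (-0.47 and -0.40). Gata4, a transcription factor of the lineage, stood between 5.38 and 9.20 CPM (0.08), Dab2, an endocytic adaptor, between 6.44 and 8.02 CPM (-0.10), and Ttr had no count. Sox17 had 33 and 30 counts in EG1 and 11 and 9 in LG1 (1.28), Pdgfra 67 and 41 against 20 and 21 (0.99), and Gata6 45 and 29 against 24 and 7 (0.92), all 3 below an unadjusted p of 0.05 and not called. These 3 thus had more counts in EG1, opposite in sign to the collagens, and the part of such cells in the phase differences was not tested. The trophectoderm list took between 0.0232% and 0.0267% over the 4 libraries, with Krt18 between 80.3 and 97.9 CPM, Krt8 between 66.9 and 85.4 CPM and Tfap2c between 46.8 and 85.0 CPM, and at most 8 counts of Cdx2 and 2 of Elf5, and the fibroblast list between 0.00671% and 0.00821%, with no count of Postn. No gene of the 2-cell-like list passed the filter, and none exceeded 3 counts in a library.

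The same comparison after 1 h of IAA used 4 other libraries of the table, in the same fit. There, 41 genes were higher in EG1 (0.195%) and 172 lower (0.818%), 1.01% in either direction. Without IAA EG1 replicate 2 or IAA LG1 replicate 2 the lower count was 311 or 367, and the higher count ran from 26 without IAA EG1 replicate 1 to 71 without IAA LG1 replicate 1, with 27 without either LG1 control library. Of the 39 genes called higher in control cells, 17 were called higher after IAA (43.6% of the control calls and 41.5% of the IAA calls), and of the 113 called lower, 97 were called lower (85.8% and 56.4%). None was called in the opposite direction, and 38 of the 39 and 112 of the 113 had the same sign. Over all genes tested, 13539 of 21020 had the same sign. Both comparisons shared the replicate block and the estimated spread of the fit. Cdc20 stood at 221 and 339 CPM in EG1 and at 108 and 183 CPM in LG1 after IAA, Plk1 at 73.0 and 120 CPM against 40.4 and 60.0 CPM, and Fbxo5 at 17.1 and 34.8 CPM against 44.7 and 75.1 CPM. The histone median was -0.97 after IAA, with 49 of 59 genes called lower.

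The difference between the 2 phase differences was tested as an interaction, and edgeR called 0 genes, with 855 at an unadjusted p under 0.05 (4.07%). DESeq2 also called 0, with 192 at an unadjusted p under 0.05. For Cdc20 the interaction was 0.03 ± 0.092 and for Plk1 0.07 ± 0.0997 on the log2 scale, and for Fbxo5 and Hist1h2bk 0.03 ± 0.125 and 0.15 ± 0.096. An interaction that misses the threshold does not show that the phases differ alike with and without SRCAP. Leaving out IAA LG1 replicate 2 gave 71 calls of the interaction, and leaving out IAA EG1 replicate 2 gave 13.

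**Figure D5:**
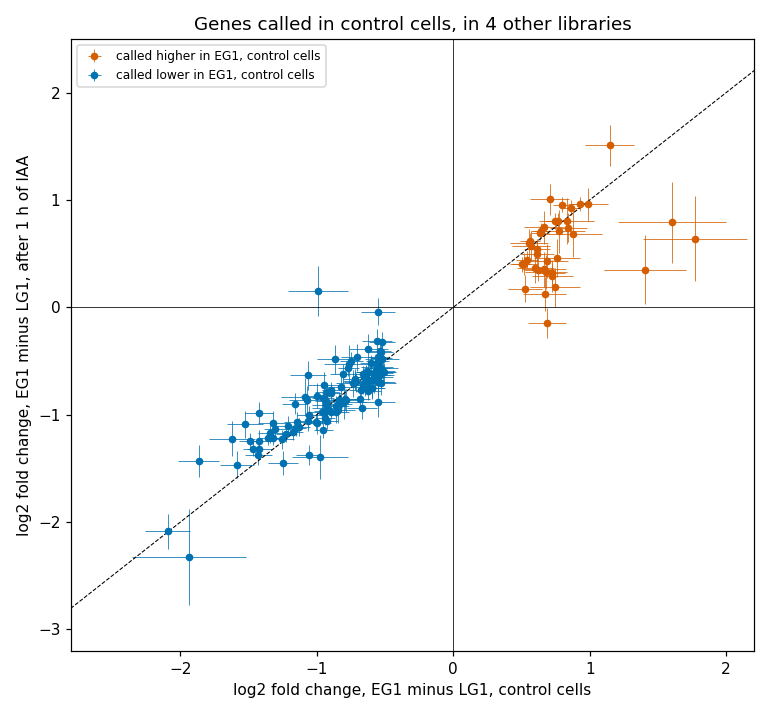
Log2 fold change of EG1 minus LG1 after 1 h of IAA against that in control cells, with standard errors, for the genes called in control cells (orange, higher in EG1; blue, lower); the dashed line marks equal values, and Vgll2 lies outside the axes. All but 2 of the 152 genes have the same sign in both comparisons, and the genes were chosen by the values on the horizontal axis. Of all 21020 genes tested, 13539 have the same sign.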

How the data were processed

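Nuclear RNA-seq of sorted control and IAA-treated SYAT cells, in duplicates, was analysed from a table of exon and intron counts per gene. The authors prepared directional libraries and, per the labels' processing notes, used STAR, featureCounts, Picard, SAMtools 1.10 and DESeq2 with mm10 before the raw counts were deposited; the settings for strand and multi-mapped reads are not given in the sources used here. Tables of the authors' own fold changes and p-values, and 18 other columns of per-sample values, were not used. Symbols and coordinates came from GENCODE (GRCm38).

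Exon counts of 8 libraries (19740778 to 26672402 each, which sets the counting error of low genes) were fitted with edgeR 4.0.16 in R 4.3.3: filterByExpr (minimum count 10, minimum total 15), TMM, a quasi-likelihood fit with a term per group and replicate number as a block (3 residual degrees of freedom), and Benjamini-Hochberg adjustment over 21020 genes. Calls needed an adjusted p under 0.05 and an absolute log2 fold change over 0.5. Differences between replicates 1 and 2 correlated between all pairs of groups (0.372 to 0.586), although the sources do not say what a number shares. On simulated counts, 99 of 100 genes changed by 0.75 and 100 of 100 changed by 1.5 on the log2 scale were called, and 4 of 20210 unchanged ones. The simulated counts held no shared difference between replicate numbers, and the changed genes were drawn from those above the median level. These shares therefore do not cover the replicate difference of the real libraries or genes of low level.

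Named genes were the 5 phase markers and Srcap, the 10 protein-coding genes with the largest called change in each direction (mean log2 CPM of at least 3, same sign in both pairs), up to 4 members per list by smallest p, and all cyclin, E2F and licensing genes. The members and lists were chosen with earlier results of these data known, and genes outside the rule are said to be chosen after their values were seen or are named only by a count of their list. Alternatives were no block, a block within each phase, RLE factors or library totals, no filter, DESeq2 1.42.0, the 4 control libraries alone, the study's threshold for sorted cells (unadjusted p under 0.05 and log2 fold change over 0.25) and leaving out each library; those that leave out an IAA library were added after the data were seen. Promoter motifs were searched in RefSeq windows. Figures used matplotlib 3.10.9.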

Additional observations from a re-analysis of the deposited data

How the results depend on the processing

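With no replicate block, no gene was called in either comparison: 0 higher and 0 lower in control cells and 0 and 0 after IAA, hence 0 histones, 0 mitotic, 0 replication, 0 E2F and 0 other list genes, while Cdc20 and Plk1 kept values of 0.93 and 0.87. Genes higher in EG1 in control cells numbered 23 with a block within each phase, 66 with no filter, 17 with DESeq2, 138 with the 4 control libraries alone and 691 at the study's threshold, and 10 to 68 with 1 library left out. Genes lower numbered 846 at the study's threshold and 81 to 127 with 1 library left out. After IAA, higher genes numbered 63 with library totals, 82 with no filter, 21 with DESeq2, 760 at the study's threshold and 26 to 71 with 1 library left out, and lower ones 266 with a block within each phase, 114 with library totals, 1279 at the study's threshold and 125 to 367 with 1 library left out. The interaction gave 5 genes with a block within each phase, 31 with no filter, 791 at the study's threshold and 0 to 71 with 1 library left out.

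Histones called lower ranged from 48 to 54 with 1 library left out. Mitotic genes gave 29 higher and 27 lower at the study's threshold, and 7 to 12 and 8 to 13 with 1 library left out. Replication genes gave 29 and 3 to 9, and the E2F family 7 and 0 to 3, with 3 under a block within each phase. The other lists gave 3 with that block, 0 with library totals, 0 with DESeq2, 3 with the 4 control libraries, 56 at the study's threshold and 1 to 2 with 1 library left out. Ccnb1 (-0.25), Ccne1 (-0.33) and Mcm6 (-0.29) passed the study's threshold, and with 1 library left out Ccne1 ranged from -0.50 (without EG1 replicate 2) to -0.17 (without EG1 replicate 1) and Ccnb1, with the same libraries at its ends, from -0.38 to -0.11. Higher genes made up 25.7% of control calls, 47.4% with the 4 control libraries alone, 45.0% at the study's threshold, 35.2% with library totals, 33% with no filter, 14.1% with a block within each phase, 13.9% with DESeq2 and 9.52% to 35.1% with 1 library left out. The cause of these shifts was not tested.

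Of genes not called, Col1a1 changed sign with a block within each phase (0.0002449) and library totals (0.01559), Cdkn1b with that block (-0.02032), RLE factors (-0.002434), no filter (-0.009165) and DESeq2 (-0.007567), Cdkn2c with that block (0.2245), Cdk6 (0.009062) and Orc4 (0.0717) with library totals, and Orc3 with no filter (-0.001501). With 1 library left out, ranges spanned 0 for Thy1 (-0.05938 to 0.3553), Col1a1 (-0.1554 to 0.06464), Cdkn1b (-0.05304 to 0.0867), Cdkn2c (-0.6147 to 0.4612), Ccnd1 (-0.2699 to 0.05868), Cdkn2d (-0.01601 to 0.2043), Tfdp2 (-0.1913 to 0.0465), Orc2 (-0.01716 to 0.07041), Orc3 (-0.09646 to 0.1416), Orc4 (-0.0583 to 0.07046) and Orc5 (-0.01211 to 0.08885). No called gene that is named reversed. With 2 libraries per phase and cells from 1 knock-in clone, the p-values cover the spread between these libraries only.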
